A study of Sus scrofa with 11 samples.

Results

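The genes described here are the enzymes that build cholesterol and fatty acids, with the regulators of that synthesis, in native pig coronary arteries and in pig coronary arteries kept in a bioreactor. They were chosen by symbol from a list of 29, and 28 of them were matched to a gene among the 25880 gene identifiers of the count tables. The match left 17 enzymes of the sterol route, 4 genes of sterol regulation and transport, and 7 enzymes of fatty acid synthesis, elongation and desaturation. All 28 passed the filter on low counts, and PMVK, phosphomevalonate kinase, was not analysed here.

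Cells make cholesterol from acetyl-CoA by way of mevalonate, isoprenoid units, squalene and lanosterol, and a chain of demethylations, reductions and isomerisations then turns lanosterol into cholesterol. Fatty acids are built from the same acetyl-CoA by acetyl-CoA carboxylase and fatty acid synthase, and are then lengthened and desaturated. The membrane-bound transcription factors SREBP1 (gene SREBF1) and SREBP2 (gene SREBF2) switch on these genes, SREBP1 mainly the fatty acid branch and SREBP2 mainly the sterol branch. When the endoplasmic reticulum membrane is rich in sterol, INSIG proteins hold the SREBP escort SCAP there, and when sterol falls SCAP carries SREBP to the Golgi to be cut and released. In the artery wall, smooth muscle cells and macrophages take up, make and export cholesterol, and the adipocytes around the vessel make and store fatty acids.

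The 4 cultured groups were stented vessels held without flow (stented static, 2 libraries), stented vessels under the stronger of the 2 marked flows (stented high-flow, 3 libraries), vessels without a stent under that flow (high-flow, 2 libraries) and vessels without a stent under the weaker flow (low-flow, 2 libraries). Uncultured arteries (native, 2 libraries) were their reference. RNA came from whole vessels, and no age, strain or sex of the pigs and no time in culture was taken from the labels. Everything that sets a bioreactor vessel apart from a fresh one differs between the cultured groups and native, so those conditions cannot be told apart. The labels mark both stented static libraries with d 3 and stented high-flow replicate 3 with d 7, without saying what d means, and give the number 25 to 1 native library (replicate 2) and 1 stented high-flow library (replicate 1). Whether the libraries within a group are from different animals is not stated. The p-values therefore describe how far these particular samples spread, and that spread may be technical.

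Levels are CPM (counts for every 1e6 counts of the library, on scaled library sizes), where 3 counts correspond to 0.105 to 0.215 CPM in these libraries. Levels are not corrected for gene length and are compared only between libraries, never between genes. Changes are log2 fold changes ± standard error, with adjusted p-values from edgeR's quasi-likelihood test over 15348 genes, and a gene was called when its adjusted p was under 0.05. The 4 comparisons with native share the same 2 native libraries. In bulk tissue, fewer cells of a type cannot be told apart from less RNA per cell.

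The libraries differed in the markers of the cells they hold. The summed level of 8 smooth muscle markers was 433 and 2220 CPM in stented static, 3650 to 5730 CPM in stented high-flow, 1370 and 4470 CPM in high-flow, 7060 and 7160 CPM in low-flow, and 27500 and 33600 CPM in native vessels, and 7 of the 8 fell over all cultured groups. The summed level of 10 adipocyte markers was 3270 and 309 CPM in stented static, 139 to 165 CPM in stented high-flow, 126 and 329 CPM in high-flow, 248 and 379 CPM in low-flow, and 3300 and 2110 CPM in native vessels, with 5 of the 10 lower and 0 higher. Alone among cultured libraries, stented static replicate 1 had an adipocyte marker sum at the native level. Single markers differed from the sum. CIDEC was also at 58.0 CPM in stented static replicate 2 and 65.8 CPM in low-flow replicate 2, against 67.2 and 46.5 CPM in native vessels. PCK1 was at 132 CPM in stented static replicate 1, above the native 3.97 and 4.14 CPM. The adipokine gene ADIPOQ, which defines adipocytes, was at 765 CPM in that library, at 0 to 15.7 CPM in the other 8 cultured libraries (0 in high-flow replicate 1), and at 1080 and 615 CPM in native vessels. The summed level of 8 macrophage markers was 285 to 2420 CPM over the cultured libraries, highest in stented static replicate 1, and 243 and 224 CPM in native vessels, with 4 of the 8 higher and 1 lower. Cardiomyocyte markers summed to 0.140 to 2.95 CPM in cultured vessels and to 602 and 3.85 CPM in native replicates 1 and 2.

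Over all 4 cultured groups most sterol enzymes were higher than in native vessels, and the fatty acid genes were mixed. Of the 17 sterol enzymes 7 rose and 2 fell, with a median log2 fold change of 1.02, against 0.02 over all genes tested. Of the 7 fatty acid genes 0 rose and 2 fell, with a median of -0.47, and none of the 4 genes of regulation and transport passed the test. The fatty acid share called, 28.6%, was near that of all genes, and ACLY and ACACA had values above 0 (0.48 and 0.09). In all, 11 of 28 members were called (39.3%), while 25.7% of all genes tested were, 9.79% higher and 15.9% lower. The median over the sterol enzymes was 1.42 in stented static, 0.88 in stented high-flow, 0.96 in high-flow and 0.66 in low-flow vessels against native, and that over the fatty acid genes was -0.09, -0.50, -0.34 and -1.03 in the same order. In the single groups fewer members passed. In stented static vessels 5 of 28 rose and 1 fell, where 5.54% of all genes rose and 7.19% fell. In stented high-flow vessels 2 rose and 4 fell, where 10.4% and 13.9% of all genes did, a share of risers below that of all genes. In high-flow vessels 5 rose and 2 fell, where 5.94% and 8.86% of all genes did, and in low-flow vessels 1 rose and 2 fell, where 5.03% and 7.38% did. Leaving out stented static replicate 1 left the 11 calls over all cultured groups in place. Leaving out native replicate 1 left only TM7SF2, and leaving out native replicate 2 left CYP51A1, TM7SF2 and ELOVL6.

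**Figure D1:**
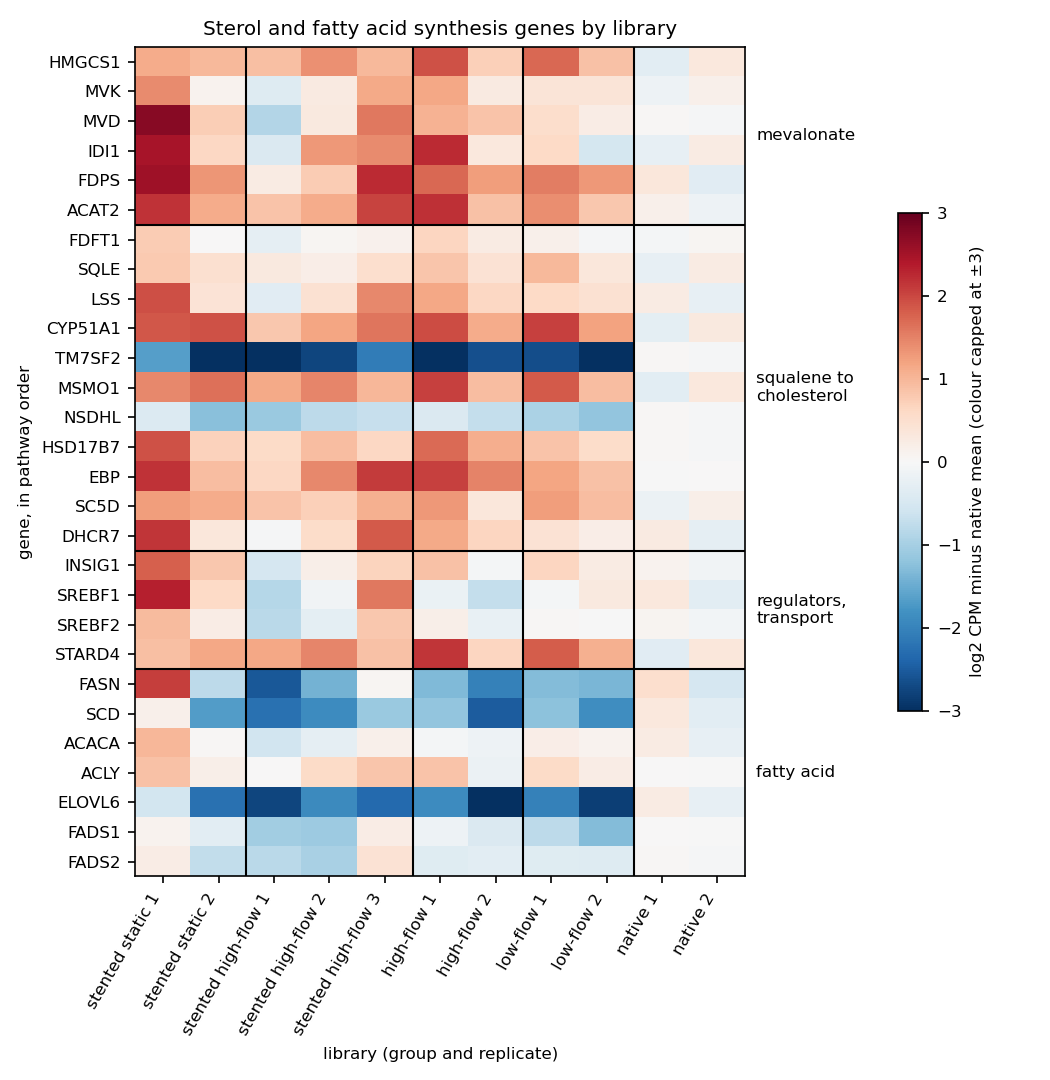
Log2 CPM of the 28 members in each of the 11 libraries, minus the mean of the native libraries, with genes in pathway order down the page and libraries across. Red is higher and blue lower than native, with the colour capped at 3. The sterol enzymes are mostly red except TM7SF2 and NSDHL, and FASN, SCD and ELOVL6 are mostly blue, with stented static replicate 1 as the library highest for 15 of the 28 genes.

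The mevalonate stage turns acetyl-CoA into the isoprenoid unit farnesyl diphosphate. All 6 measured genes had a positive log2 fold change over all cultured groups, from 0.64 to 1.58, where 51.2% of all genes were above 0. Of the 6 genes, 2 passed the test. HMGCS1 (chromosome 16, 27936225 to 27957261 in Sscrofa11.1), the synthase of hydroxymethylglutaryl-CoA and an SREBP2 target, had 93.2 and 84.6 CPM in stented static, 80.3, 112 and 84.3 CPM in stented high-flow, 163 and 70.5 CPM in high-flow, 144 and 79.3 CPM in low-flow, and 34.9 and 53.6 CPM in native vessels. Every cultured library was above both native ones. The change over all cultured groups was 1.20 ± 0.36 (edgeR adjusted p = 0.0310), and among the single groups it passed the test in high-flow vessels (1.40 ± 0.43, edgeR adjusted p = 0.0497). ACAT2 (chromosome 1, 7600616 to 7612861), which joins acetyl-CoA units at the entry of the route, had 57.3 and 27.4 CPM in stented static, 23, 27.7 and 52.2 CPM in stented high-flow, 58.2 and 23.3 CPM in high-flow, 33.4 and 22.2 CPM in low-flow, and 14.0 and 11.4 CPM in native vessels. These groups did not overlap with native either, and the change over all cultured groups was 1.49 ± 0.46 (edgeR adjusted p = 0.0342). Both calls over all cultured groups were lost without native replicate 1, native replicate 2 or low-flow replicate 1 (edgeR adjusted p up to 0.278 for HMGCS1 and 0.226 for ACAT2). The call of HMGCS1 in high-flow vessels was lost without either native library, high-flow replicate 1, stented high-flow replicate 2 or either low-flow library (edgeR adjusted p up to 0.379).

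None of the other 4 mevalonate genes passed in any group, and their cultured libraries spread widely. MVD, the decarboxylase that makes isopentenyl diphosphate, ran from 7.68 CPM in stented high-flow replicate 1 to 95.6 CPM in stented static replicate 1, against 14.7 and 13.8 CPM in native vessels. IDI1, the isomerase of that product, ran from 26.3 CPM in low-flow replicate 2 to 212 CPM in stented static replicate 1, against 32.1 and 44.8 CPM in native vessels. FDPS, which joins the isoprenoid units, was above both native libraries (3.39 and 2.07 CPM) in 8 of 9 cultured libraries, at 3.16 to 15.9 CPM. Its log2 fold change was 1.58 ± 0.57 over all cultured groups and did not pass the test (edgeR adjusted p = 0.0635). Mevalonate kinase, MVK, was at 3.95 to 14.0 CPM in cultured and at 4.62 and 5.75 CPM in native vessels.

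From squalene to cholesterol, 5 of 11 enzymes rose over all cultured groups and 2 fell. CYP51A1, the lanosterol demethylase, was the member whose rise passed the test in each of the 4 groups. It had 116 and 119 CPM in stented static, 55.7, 71.9 and 96.6 CPM in stented high-flow, 125 and 69.1 CPM in high-flow, 133 and 73 CPM in low-flow, and 25.7 and 39.2 CPM in native vessels. All cultured libraries were above both native ones, and the stented high-flow ones reached least far. Its log2 fold change was 1.86 ± 0.41 in stented static (edgeR adjusted p = 0.0160), 1.20 ± 0.38 in stented high-flow (0.0400), 1.58 ± 0.41 in high-flow (0.0258) and 1.66 ± 0.41 in low-flow vessels (0.0245). Over all cultured groups it was 1.57 ± 0.35 (edgeR adjusted p = 0.00756), a call that was lost only without native replicate 1 (0.128) among the single libraries left out. The calls in the single groups were lost without either native library, and also without stented static replicate 1, stented high-flow replicates 2 or 3, high-flow replicate 1 and low-flow replicate 1 in their own groups (edgeR adjusted p up to 0.140, 0.281, 0.199 and 0.205 in the order of the groups above).

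EBP (chromosome X, 42670592 to 42678571), the sterol isomerase known as emopamil binding protein, had 71.3 and 30.0 CPM in stented static, 24.1, 42.9 and 68.0 CPM in stented high-flow, 65.4 and 44.5 CPM in high-flow, 35.9 and 29.2 CPM in low-flow, and 15.8 CPM in each native library. Cultured and native libraries did not overlap. The change was 1.69 ± 0.50, 1.51 ± 0.47 and 1.80 ± 0.50 in stented static, stented high-flow and high-flow vessels (edgeR adjusted p = 0.0485, 0.0371 and 0.0342). In low-flow vessels it was 1.04 ± 0.49 and did not pass (edgeR adjusted p = 0.188). MSMO1 (chromosome 8, 43726834 to 43745784), the methylsterol oxidase that acts after CYP51A1, had 48.3 and 55.7 CPM in stented static, 39.2, 49.3 and 35.2 CPM in stented high-flow, 74.3 and 33.9 CPM in high-flow, 63.6 and 34.1 CPM in low-flow, and 14.2 and 22.2 CPM in native vessels. Again no cultured library reached down to native. Its change passed in stented static (1.51 ± 0.43, edgeR adjusted p = 0.0410) and in high-flow vessels (1.57 ± 0.43, edgeR adjusted p = 0.0322), and was 1.18 ± 0.40 in stented high-flow and 1.42 ± 0.43 in low-flow vessels (edgeR adjusted p = 0.0519 and 0.0520).

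HSD17B7 (chromosome 4, 87720747 to 87743037), the ketosteroid reductase that closes the demethylation cycle, had 46.7 and 20 CPM in stented static, 18.5, 23.9 and 19.1 CPM in stented high-flow, 40.8 and 26.5 CPM in high-flow, 22.4 and 18.3 CPM in low-flow, and 12.7 and 12.2 CPM in native vessels. All cultured libraries lay above native, and stented static replicate 1 and high-flow replicate 1 lay well above the rest. The change was 1.42 ± 0.40 in stented static and 1.43 ± 0.40 in high-flow vessels (edgeR adjusted p = 0.0392 and 0.0338), and 0.72 ± 0.36 in stented high-flow and 0.71 ± 0.39 in low-flow vessels (edgeR adjusted p = 0.177 and 0.263). SC5D (chromosome 9, 48357115 to 48372391), the sterol desaturase, had 41.6 and 37.9 CPM in stented static, 31.6, 28.5 and 36.8 CPM in stented high-flow, 43.4 and 22.1 CPM in high-flow, 41.8 and 32.9 CPM in low-flow, and 15.5 and 19.6 CPM in native vessels. The groups did not overlap, with high-flow replicate 2 closest to native. The change was 1.18 ± 0.34 in stented static (edgeR adjusted p = 0.0432), and in the other 3 groups it was 0.88 to 1.09 and did not pass (edgeR adjusted p = 0.0569 to 0.0958). Over all cultured groups EBP, MSMO1, HSD17B7 and SC5D rose by 1.51 ± 0.43, 1.42 ± 0.36, 1.07 ± 0.33 and 1.01 ± 0.28 (edgeR adjusted p = 0.0238, 0.0155, 0.0349 and 0.0223). All of those calls were lost without either native library (edgeR adjusted p up to 0.166, 0.184, 0.194 and 0.223). The call of HSD17B7 was lost as well without stented high-flow replicate 2, high-flow replicate 1 or either low-flow library. In the single groups each call of these 4 genes was lost without either native library, and also without stented static replicate 1 in stented static vessels and high-flow replicate 1 in high-flow vessels. Stented high-flow replicate 2 was needed for all 4 calls in stented static vessels and for those of EBP in stented high-flow and high-flow vessels. Either low-flow library was needed for the calls of EBP and HSD17B7 in each group and of SC5D in stented static vessels. Stented static replicate 2 was needed for MSMO1 and SC5D in stented static vessels, stented high-flow replicate 3 for EBP in stented high-flow vessels, and high-flow replicate 2 for EBP in stented static and high-flow vessels. High-flow replicate 1 was needed for EBP in stented static vessels too. Over all these omissions the edgeR adjusted p reached at most 0.316, for EBP in stented static vessels.

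**Figure D2:**
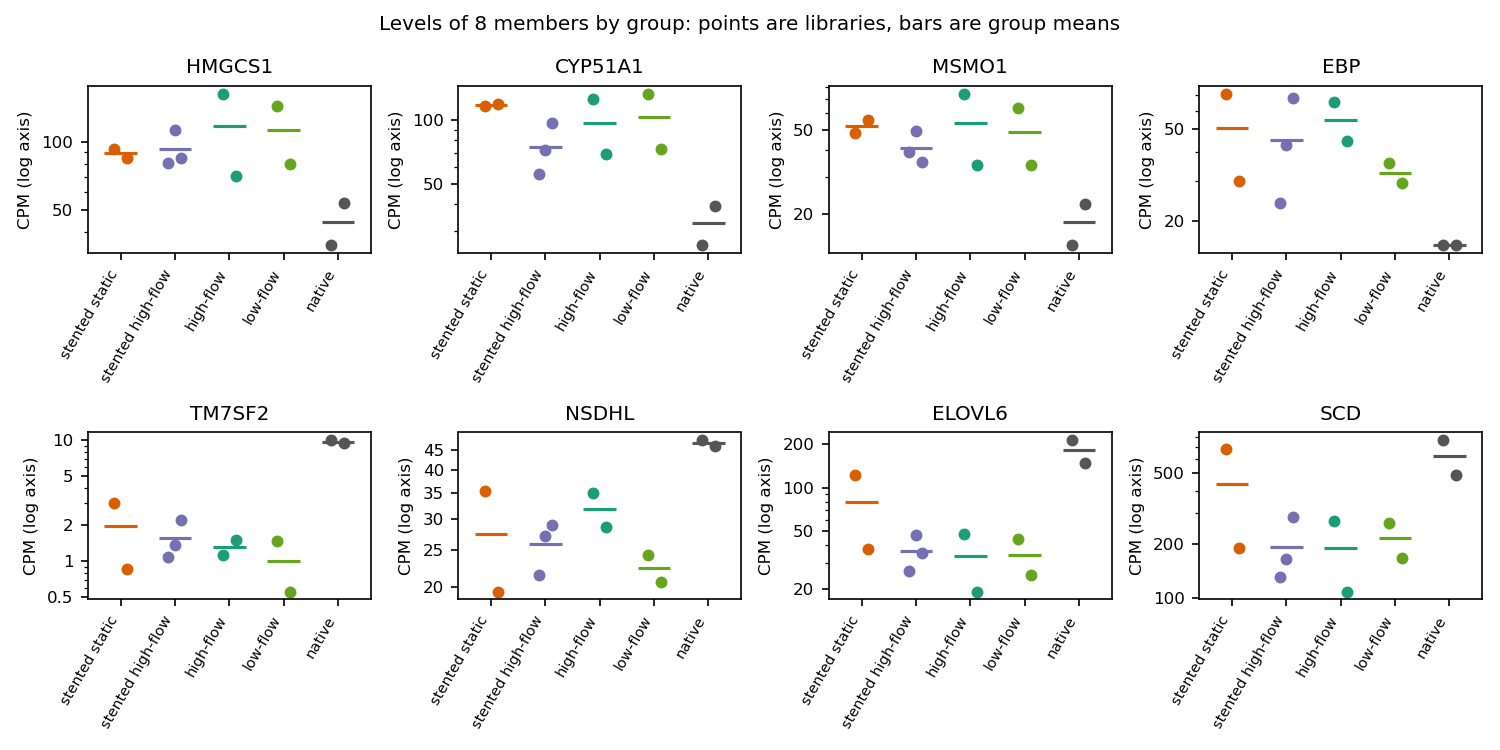
CPM on a log axis of 8 members in each library (points) with group means (bars), cultured groups left of native, each panel with its own scale. HMGCS1, CYP51A1, MSMO1 and EBP lie above both native libraries in every cultured library, TM7SF2, NSDHL and ELOVL6 lie below, and SCD overlaps with native through stented static replicate 1.

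The other 4 enzymes of this stage that catalyse the first and last steps did not pass in any group. FDFT1, squalene synthase, was at 76.4 to 155 CPM in cultured and at 87.1 and 95.9 CPM in native vessels, and its change was the smallest of the sterol enzymes (0.23 ± 0.24 over all cultured groups). SQLE, the squalene epoxidase, was at 48.7 to 82.5 CPM in cultured and at 35.6 and 50 CPM in native vessels. LSS, lanosterol synthase, was at 42.5 to 207 CPM in cultured and at 63.9 and 45.9 CPM in native vessels. DHCR7, which makes cholesterol from its last precursor in one branch, was at 15.8 to 71.8 CPM in cultured and at 19.7 and 13.3 CPM in native vessels. The highest library was stented static replicate 1 for FDFT1, LSS and DHCR7, and stented high-flow replicate 1 was the lowest for FDFT1 and LSS.

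TM7SF2 and NSDHL ran against the other sterol enzymes. TM7SF2 (chromosome 2, 7076778 to 7081502), a sterol reductase that acts on the product of CYP51A1, had 3.00 and 0.852 CPM in stented static, 1.08, 1.35 and 2.20 CPM in stented high-flow, 1.12 and 1.49 CPM in high-flow, 1.46 and 0.559 CPM in low-flow, and 10 and 9.43 CPM in native vessels. Its cultured levels rest on 14 to 76 counts per library and its native ones on 154 and 164, and the highest cultured library stayed well under both. It fell by 2.31 ± 0.67 in stented static (edgeR adjusted p = 0.0445), 2.64 ± 0.59 in stented high-flow (0.00892), 2.89 ± 0.69 in high-flow (0.0184) and 3.27 ± 0.70 in low-flow vessels (0.0135). Over all cultured groups it fell by 2.78 ± 0.44 on the log2 scale, to 0.146 of the native level (edgeR adjusted p = 0.000991). That call held with any single library left out (edgeR adjusted p between 0.000391 and 0.0166). The call in stented static vessels was lost without any of 8 libraries, both native ones among them (edgeR adjusted p up to 0.168), and held without stented static replicate 1. In stented high-flow vessels it was lost only without native replicate 1 (edgeR adjusted p = 0.0541), and in high-flow and low-flow vessels without either native library or either library of the group (edgeR adjusted p up to 0.128 in both).

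The reads of the route above and at TM7SF2 can be set against each other within each library. CYP51A1 had 38.6 to 140 times as many counts as TM7SF2 in the cultured libraries, and 2.56 and 4.16 times as many in the native ones, a ratio that also reflects gene length and is compared only between libraries. LBR, a nuclear envelope protein with the same reductase activity, was looked up after its values were seen. It had 12.4 to 28.1 CPM in cultured and 22.9 and 27.3 CPM in native vessels, with a change of -0.10 ± 0.27 over all cultured groups that did not pass the test (edgeR adjusted p = 0.817). LBR counts were 8.34 to 43.1 times those of TM7SF2 in cultured libraries, and 2.28 and 2.90 times in native ones, without overlap.

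NSDHL (chromosome X, 123906130 to 123921935), the decarboxylating dehydrogenase between MSMO1 and HSD17B7 in the demethylation cycle, had 35.4 and 19.5 CPM in stented static, 21.5, 27.1 and 29.0 CPM in stented high-flow, 35.0 and 28.5 CPM in high-flow, 24.2 and 20.7 CPM in low-flow, and 47.8 and 46.1 CPM in native vessels. Every cultured library was below both native ones, while MSMO1 and HSD17B7 were above native in all 9. Over all cultured groups it fell by 0.82 ± 0.23 (edgeR adjusted p = 0.0255), and among single groups the test was passed in stented high-flow vessels (-0.86 ± 0.28, edgeR adjusted p = 0.0481). The call over all cultured groups was lost without native replicate 1, native replicate 2, high-flow replicate 2 or low-flow replicate 2 (edgeR adjusted p up to 0.177). The call in stented high-flow vessels held in 5 of 18 alternative settings, and was lost without any 1 library of the native, stented high-flow, high-flow or low-flow groups (edgeR adjusted p up to 0.200). Of the 17 sterol enzymes 7 had all 9 cultured libraries above both native ones and 2 had all below. Over all genes tested, 14.1% had all cultured libraries above and 16.9% had all below.

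**Figure D3:**
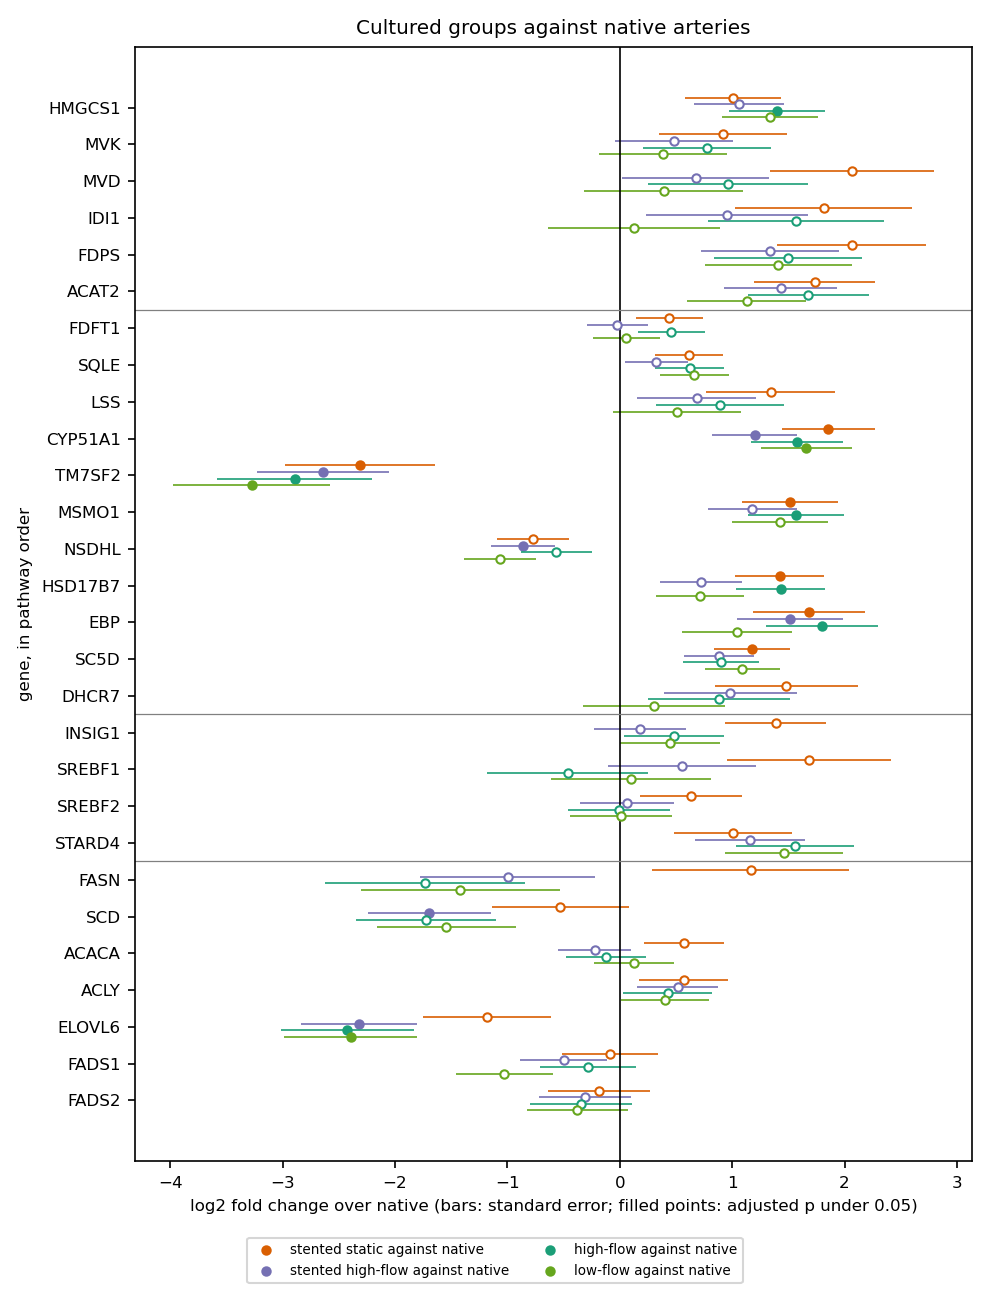
Log2 fold change against native of the 28 members in the 4 cultured groups, with standard errors as bars, and filled points where the adjusted p was under 0.05. The mevalonate and later sterol enzymes lie mostly right of 0 and FASN, SCD and ELOVL6 mostly left of it, and TM7SF2 is the member farthest left, at -2.31 to -3.27.

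None of the 4 genes of regulation and transport passed the test in any group. INSIG1 (chromosome 18, 2885494 to 2898758), the sterol sensor partner of SCAP and itself an SREBP target, had 200 and 102 CPM in stented static, 40.3, 64.7 and 91.0 CPM in stented high-flow, 105 and 55.7 CPM in high-flow, 89.4 and 68.5 CPM in low-flow, and 62.4 and 53.2 CPM in native vessels. Both stented static and both low-flow libraries were above native, and stented high-flow and high-flow vessels overlapped with it. The change was 1.39 ± 0.45 in stented static vessels, short of the threshold (edgeR adjusted p = 0.0676), and 0.18 to 0.48 in the other groups (edgeR adjusted p = 0.514 to 0.787). Without stented high-flow replicate 3 the value in stented high-flow vessels was -0.14.

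SREBF1 (chromosome 12, 60733967 to 60750951) had 230 and 69.2 CPM in stented static, 25.3, 41.9 and 137 CPM in stented high-flow, 39.6 and 27.8 CPM in high-flow, 43.8 and 56.0 CPM in low-flow, and 56.4 and 36.6 CPM in native vessels. Stented static replicate 1 and stented high-flow replicate 3 stood far above the other libraries, and the remaining cultured libraries spanned the native range. The change was 1.69 ± 0.73 in stented static, 0.55 ± 0.66 in stented high-flow, -0.46 ± 0.71 in high-flow and 0.10 ± 0.71 in low-flow vessels, and none passed (edgeR adjusted p = 0.149 to 0.947). Without stented high-flow replicate 3 the value in stented high-flow vessels was -0.47. SREBF2 (chromosome 5, 6719484 to 6784724) had 293 and 178 CPM in stented static, 87.1, 124 and 265 CPM in stented high-flow, 172 and 131 CPM in high-flow, 155 and 151 CPM in low-flow, and 160 and 144 CPM in native vessels. Low-flow and high-flow libraries lay at or near the native values, and the same pair of libraries as for SREBF1 was highest. Its change was 0.63 ± 0.46 in stented static and between -0.00 and 0.07 in the other groups, and none passed (edgeR adjusted p = 0.392 to 0.997).

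STARD4, a carrier that moves sterol between membranes and a sterol-responsive gene, had 6.24 and 7.48 CPM in stented static, 7.46, 9.26 and 6.18 CPM in stented high-flow, 14.9 and 5.24 CPM in high-flow, 11.8 and 6.99 CPM in low-flow, and 2.60 and 4.2 CPM in native vessels. All cultured libraries were above both native ones, but the change over all cultured groups, 1.30 ± 0.44, fell short of the threshold (edgeR adjusted p = 0.0528). In the single groups it was 1.01 to 1.56 (edgeR adjusted p = 0.0691 to 0.225).

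In the fatty acid branch 2 of 7 genes fell over all cultured groups and none rose. ELOVL6 (chromosome 8, 112038670 to 112190079), the elongase that turns palmitate into stearate, had 122 and 38.0 CPM in stented static, 26.5, 47.1 and 35.2 CPM in stented high-flow, 48.3 and 19.2 CPM in high-flow, 44.0 and 24.9 CPM in low-flow, and 213 and 149 CPM in native vessels. Every cultured library was below both native ones, with stented static replicate 1 nearest to them. It fell by 2.32 ± 0.51 in stented high-flow, 2.42 ± 0.59 in high-flow and 2.40 ± 0.59 in low-flow vessels (edgeR adjusted p = 0.00861, 0.0207 and 0.0251). In stented static vessels the change was -1.18 ± 0.57 and did not pass (edgeR adjusted p = 0.195). Over all cultured groups it fell by 2.08 ± 0.39 (edgeR adjusted p = 0.00289), a call lost only without native replicate 1 (0.0570) among the single libraries left out. The call in stented high-flow vessels was lost without native replicate 1 (edgeR adjusted p = 0.0678). That in high-flow vessels was lost without either native library or high-flow replicate 2 (edgeR adjusted p up to 0.127), and that in low-flow vessels without either native or either low-flow library (up to 0.184).

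SCD (chromosome 14, 111461560 to 111478033), the desaturase that makes oleate from stearate, had 679 and 191 CPM in stented static, 131, 166 and 285 CPM in stented high-flow, 271 and 109 CPM in high-flow, 262 and 169 CPM in low-flow, and 766 and 490 CPM in native vessels. Stented static replicate 1 fell between the native libraries, and the other 8 cultured libraries were below both. It fell by 1.69 ± 0.55 in stented high-flow vessels (edgeR adjusted p = 0.0443), which held without replicate 3 of that group but not without replicates 1 or 2, either native or either low-flow library (up to 0.255). The changes of -1.72 ± 0.62 in high-flow, -1.54 ± 0.62 in low-flow and -0.53 ± 0.61 in stented static vessels did not pass (edgeR adjusted p = 0.0877, 0.128 and 0.607). Over all cultured groups it fell by 1.37 ± 0.44 (edgeR adjusted p = 0.0392). The test was no longer passed when any of 6 libraries was left out, namely both native, both low-flow, stented high-flow replicate 2 and high-flow replicate 2 (edgeR adjusted p up to 0.338).

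FASN (chromosome 12, 922405 to 937560), fatty acid synthase, had 2560 and 351 CPM in stented static, 105, 230 and 641 CPM in stented high-flow, 242 and 149 CPM in high-flow, 249 and 236 CPM in low-flow, and 872 and 427 CPM in native vessels. The first stented static library was above both native ones, stented high-flow replicate 3 lay between them, and the other 7 cultured libraries were below both, so the cultured libraries spanned a 24.3-fold range. The change was 1.16 ± 0.88 in stented static, -0.997 ± 0.78 in stented high-flow, -1.73 ± 0.89 in high-flow and -1.42 ± 0.88 in low-flow vessels, and none passed (edgeR adjusted p = 0.220 to 0.415). Without stented static replicate 1 the value in stented static vessels was -0.86. Adipocyte markers were high in the same library, at a summed 3270 CPM against 126 to 379 CPM in the other 8 cultured libraries. In stented high-flow replicate 3 they summed to 139 CPM, the second lowest of all 11 libraries, and FASN was the highest of its group. The part of adipocyte content in the levels of FASN, SCD and ELOVL6 was not tested.

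**Figure D4:**
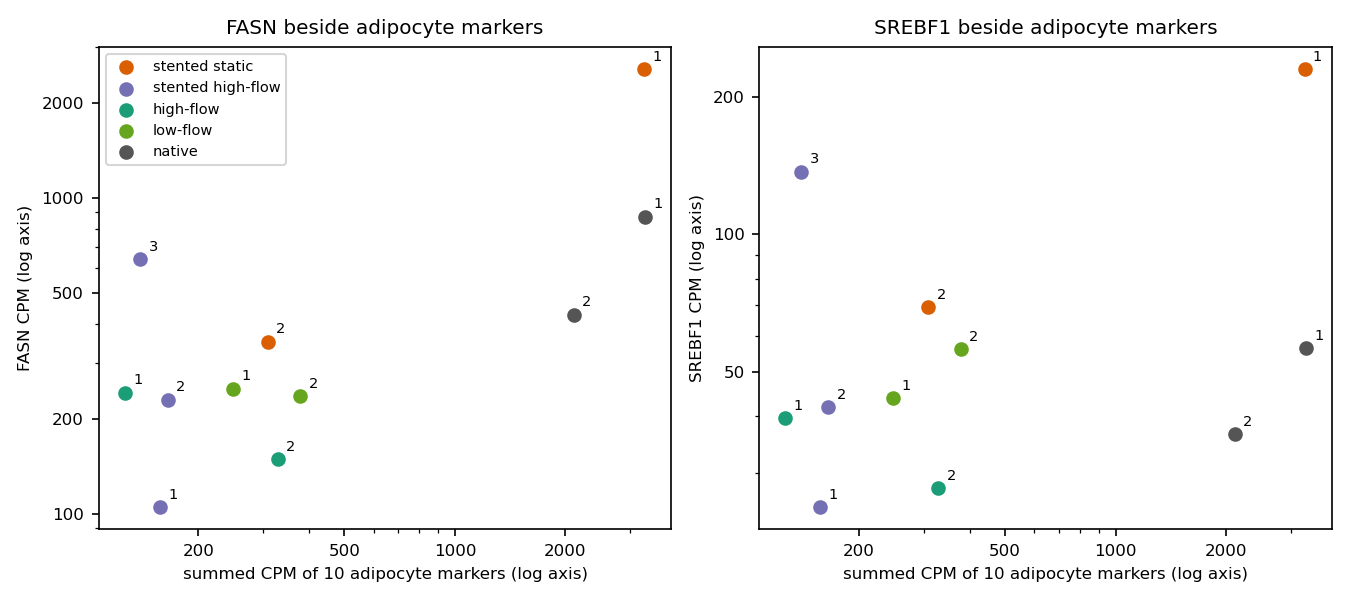
CPM of FASN (left) and SREBF1 (right) against the summed CPM of 10 adipocyte markers, both on log axes, with a point per library numbered by replicate. Stented static replicate 1 is highest for both genes and lies at the native marker level, at 3270 CPM. Stented high-flow replicate 3 has 641 CPM of FASN and 137 CPM of SREBF1 at a marker sum of 139 CPM.

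The remaining 4 fatty acid genes did not pass in any group. ACLY, which supplies acetyl-CoA from citrate to both branches, was at 91.6 to 191 CPM in cultured and at 104 CPM in each native library, and 8 of 9 cultured libraries were above native. ACACA, acetyl-CoA carboxylase, was at 80.4 to 240 CPM in cultured and at 143 and 101 CPM in native vessels. The desaturases of polyunsaturated fatty acids, FADS1 and FADS2, were below both native libraries in 7 of 9 cultured ones each. FADS1 was at 86.1 to 251 CPM in cultured and at 217 and 211 CPM in native vessels, and FADS2 at 112 to 298 CPM in cultured and at 227 and 217 CPM in native vessels. The exceptions for both desaturases were stented static replicate 1 and stented high-flow replicate 3.

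The branches were set against each other in each library by the mean log2 CPM of the 17 sterol enzymes and of the 7 fatty acid genes, each relative to the native mean. The stented static libraries had sterol means of 1.45 and 0.46, the stented high-flow libraries -0.02, 0.50 and 0.99, the high-flow libraries 1.16 and 0.46, the low-flow libraries 0.70 and 0.20, and the native libraries -0.04 and 0.04. Fatty acid means were 0.55 and -0.79 for stented static, -1.42, -1.0 and -0.24 for stented high-flow, -0.59 and -1.26 for high-flow, -0.70 and -1.06 for low-flow, and 0.20 and -0.20 for native libraries. Taken alone, each branch overlapped with native or nearly did, since stented high-flow replicate 1 had a sterol mean at the native level and stented static replicate 1 a fatty acid mean above it.

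Within each cultured group the difference between the branches had a smaller SD than either branch, while between the native libraries its SD was larger (0.34, against 0.05 for the sterol and 0.28 for the fatty acid mean). Its values were 0.90 and 1.25 for stented static, 1.40, 1.505 and 1.24 for stented high-flow, 1.75 and 1.72 for high-flow, 1.40 and 1.27 for low-flow, and -0.24 and 0.24 for native libraries, so that every cultured library lay above both native ones. The group means of the difference were 1.07 ± 0.25 in stented static (SD, n = 2), 1.38 ± 0.14 in stented high-flow (n = 3), 1.73 ± 0.02 in high-flow (n = 2), 1.33 ± 0.10 in low-flow (n = 2) and 0.00 ± 0.34 in native vessels (n = 2). The SD of the sterol mean within cultured groups was 0.35 to 0.70 and that of the fatty acid mean 0.25 to 0.95. These means are a description of chosen genes and carry no test. With the median over members in place of the mean, the difference in stented static vessels was 1.66. The adipocyte marker sum was 3300 and 2110 CPM in native libraries and 3270 CPM in stented static replicate 1. In the other cultured libraries it was 126 to 379 CPM. The part of adipocyte content in the difference between the branches was not tested.

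**Figure D5:**
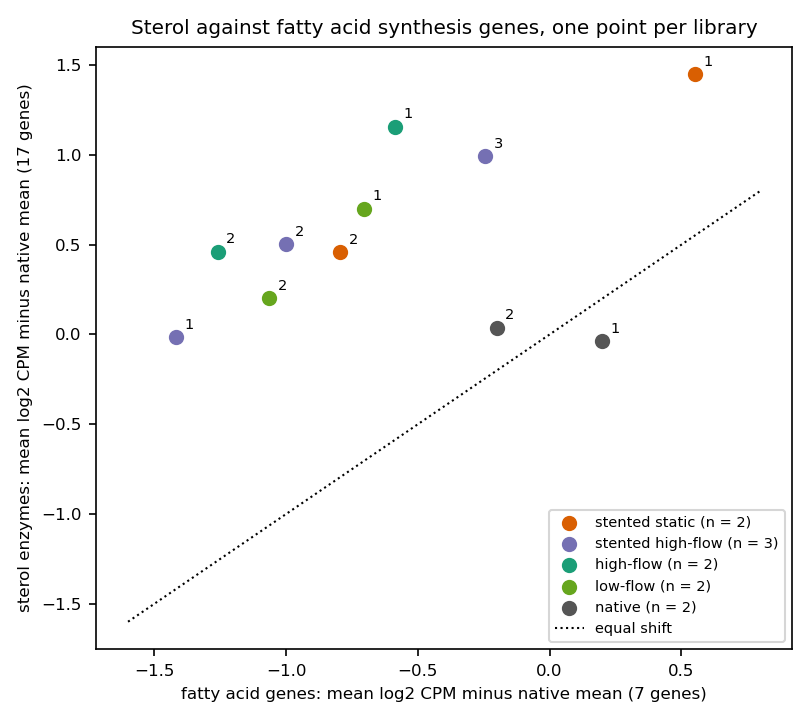
Mean log2 CPM of the 17 sterol enzymes (vertical) against that of the 7 fatty acid genes (horizontal), each relative to the native mean, with a point per library numbered by replicate and a dotted line where both shift equally. The 9 cultured libraries lie along a band above the line, at a difference of 0.90 to 1.75, and the native libraries lie at -0.24 and 0.24 from it.

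Within the cultured groups most members of both branches were higher in the same replicate, which the native libraries did not show. Stented static replicate 1 was above replicate 2 for 25 of 28 members, by a median of 1.02 on the log2 scale, against 48.7% of all genes tested. Stented high-flow replicate 3 was above replicate 1 for 26 members, by a median of 1.15, against 48.4% of all genes. High-flow replicate 1 was above replicate 2 for 26 members (49.4% of all genes), and low-flow replicate 1 was above replicate 2 for 27 (50% of all genes). In native vessels replicate 1 was above replicate 2 for 18 members (53.7% of all genes), made up of 7 of 7 fatty acid genes, 8 of 17 sterol enzymes and 3 of 4 other genes. Stented static replicate 1 held the highest level of all 11 libraries for 15 of 28 members, against 14.8% of all genes, and stented high-flow replicate 1 the lowest for 9 members, against 9.41% of all genes. The adipocyte marker sum in replicates 1 and 2 was 3270 and 309 CPM in stented static, 126 and 329 CPM in high-flow and 248 and 379 CPM in low-flow vessels, and in stented high-flow vessels it was 139 CPM in replicate 3 and 157 CPM in replicate 1. Macrophage markers were higher in the same replicate in stented static (2420 against 1130 CPM), stented high-flow (658 against 471 CPM) and high-flow vessels (650 against 285 CPM), and nearly equal in low-flow vessels (1170 and 1130 CPM). Smooth muscle markers were lower in that replicate in stented static (433 against 2220 CPM) and stented high-flow vessels (4040 against 5730 CPM). They were also lower in high-flow vessels (1370 against 4470 CPM), and nearly equal in low-flow vessels (7060 and 7160 CPM). The part of any cell type in the shared shift was not tested.

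Between cultured groups no member passed the test. Stented high-flow and stented static vessels differ in flow, and also in the d mark of the labels (3 on both stented static libraries, 7 on stented high-flow replicate 3), which cannot be told apart. Here 0 of 28 members were called, where 2.85% of all genes were (1.18% higher and 1.67% lower). An unadjusted edgeR p under 0.05 was found for 5 of 28 members and for 2937 of 15348 genes tested, which are similar shares. The 5 were MVD (-1.39 ± 0.63), INSIG1 (-1.21 ± 0.40), FASN (-2.16 ± 0.79), ACACA (-0.79 ± 0.32) and ELOVL6 (-1.14 ± 0.51), all lower in stented high-flow vessels (edgeR adjusted p = 0.129 to 0.257). DESeq2 called 1 of the 28 there, FASN, as lower. Of the 28 log2 fold changes 2 were above 0, where 50.9% of those of all genes were. Without stented static replicate 1 the count of members above 0 became 15, with 0 at an unadjusted p under 0.05.

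Stented high-flow and high-flow vessels differ in the stent, and 0 of 28 members and 0% of all genes were called by edgeR. An unadjusted edgeR p under 0.05 was found for 0 members and for 467 of 15348 genes, and DESeq2 called 0 members. These groups come from different count tables. The largest changes of members were in SREBF1 (1.02 ± 0.67) and in FASN and HSD17B7 (0.73 ± 0.81 and -0.71 ± 0.35), and without stented high-flow replicate 3 those of SREBF1 and FASN were -0.0046 and -0.23. Without high-flow replicate 1 that of HSD17B7 was -0.37. High-flow and low-flow vessels differ in the strength of flow. By edgeR 0 of 28 members were called, where 0.104% of all genes were (0.0782% higher and 0.0261% lower). An unadjusted edgeR p under 0.05 was found for 0 members and for 1236 of 15348 genes, and DESeq2 called 0 members. Here 19 of 28 log2 fold changes were above 0, where 50.1% of those of all genes were. The largest were in IDI1 (1.44 ± 0.78) and EBP (0.76 ± 0.48). Without high-flow replicate 1 they were 0.17 and 0.45. Standard errors of members were 0.27 to 0.87 in these 3 comparisons, and a p that missed the threshold does not show equal levels.

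Of 7 further genes of sterol synthesis and SREBP processing reported here, edgeR called 0 higher and 1 lower over all cultured groups. ERLIN2, an endoplasmic reticulum membrane protein, fell by 0.64 ± 0.20 (edgeR adjusted p = 0.0415), a call that was lost without either native library or any of 5 cultured libraries (edgeR adjusted p up to 0.400). The log2 fold changes of the 7 genes ran from -0.64 to 0.59, with an unadjusted edgeR p under 0.05 for 2 of them. SCAP, INSIG2 and MBTPS1 of the SREBP machinery were within 0.19 of native on the log2 scale without passing.

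Of 9 genes of sterol uptake, storage and oxysterols reported here, 4 rose and 3 fell over all cultured groups (9.79% and 15.9% of all genes did). NPC2, which hands cholesterol on inside lysosomes, had 526 and 389 CPM in stented static, 267, 364 and 371 CPM in stented high-flow, 254 and 238 CPM in high-flow, 287 and 318 CPM in low-flow, and 133 and 150 CPM in native vessels. All cultured libraries were above native, with stented static highest. The lysosomal sterol exporters NPC1 and NPC2 rose by 1.30 ± 0.36 and 1.21 ± 0.24 (edgeR adjusted p = 0.0236 and 0.00370), and SOAT1, which esterifies cholesterol for storage, rose by 1.59 ± 0.36 (0.00856). OSBPL6, a sterol-binding protein, rose by 1.61 ± 0.30 (edgeR adjusted p = 0.00266). CYP27A1, the mitochondrial sterol hydroxylase, had 97.6 and 26.3 CPM in stented static, 3.87, 3.59 and 9.09 CPM in stented high-flow, 7.17 and 5.29 CPM in high-flow, 23.9 and 21.2 CPM in low-flow, and 148 and 98.2 CPM in native vessels. All cultured libraries were below native, and stented static replicate 1 lay just under native replicate 2. It fell by 3.05 ± 0.38 (edgeR adjusted p = 0.000252), and was lower in stented high-flow than in stented static vessels as well (-3.48 ± 0.54, edgeR adjusted p = 0.0112). CH25H and CYP7B1, which make and break down hydroxycholesterols, fell by 2.60 ± 0.49 and 1.49 ± 0.31 (edgeR adjusted p = 0.00283 and 0.00513). The call of NPC1 was lost without either native library, those of NPC2 and SOAT1 without native replicate 1 and that of CYP7B1 without native replicate 2 (edgeR adjusted p up to 0.202, 0.0764, 0.137 and 0.145).

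Targets of the liver X receptor, the sterol-activated nuclear receptor that drives cholesterol export, split, with 4 of the 8 reported here higher and 1 lower over all cultured groups (9.79% and 15.9% of all genes). ABCG1, a cholesterol exporter, had 10.1 and 4.14 CPM in stented static, 4.38, 3.31 and 4.68 CPM in stented high-flow, 3.36 and 1.9 CPM in high-flow, 3.85 and 5.49 CPM in low-flow, and 15.3 and 14.2 CPM in native vessels. Every cultured library was below both native ones. The exporter ABCA1 rose by 0.96 ± 0.31 and its relative ABCG1 fell by 1.76 ± 0.34 (edgeR adjusted p = 0.0410 and 0.00319). The receptor gene NR1H3, the phospholipid enzyme LPCAT3 and the phosphodiesterase SMPDL3A rose by 1.49 ± 0.39, 1.44 ± 0.38 and 1.33 ± 0.38 (edgeR adjusted p = 0.0176, 0.0167 and 0.0247). Those 3 calls and that of ABCA1 were lost without either native library (edgeR adjusted p up to 0.165, 0.143, 0.171 and 0.320), that of ABCA1 also without stented high-flow replicate 2, high-flow replicate 1 or either low-flow library. The macrophage marker sum was higher in cultured vessels as well. NR1H3 and NPC1 were highest in stented static replicate 1 (11 and 90.8 CPM), the library with the highest macrophage sum of 2420 CPM. That library was also the highest for 14.8% of all genes tested. The part of macrophages in these changes was not tested.

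Of 17 measured genes of fatty acid elongation, activation and supply, 2 rose and 5 fell over all cultured groups (9.79% and 15.9% of all genes did). ACSL4, which activates arachidonate and other polyunsaturated fatty acids, had 177 and 260 CPM in stented static, 533, 387 and 315 CPM in stented high-flow, 455 and 311 CPM in high-flow, 323 and 253 CPM in low-flow, and 39.9 and 53.9 CPM in native vessels. It was far above native in every cultured library and rose by 2.75 ± 0.33 (edgeR adjusted p = 0.000202). THRSP, a lipogenic regulator of adipocytes and liver, had 164 and 0.608 CPM in stented static, 0.215, 0.112 and 0.0468 CPM in stented high-flow, 0 and 2.36 CPM in high-flow, 0.899 and 3.43 CPM in low-flow, and 202 and 125 CPM in native vessels. MLXIPL, the carbohydrate-responsive activator of lipogenic genes, had 18.2 and 0.912 CPM in stented static, at most 0.979 CPM in the other cultured groups, and 20.6 and 11 CPM in native vessels. Both were at the native level in stented static replicate 1 alone among cultured libraries, as was the adipocyte marker sum. Both fell over all cultured groups (edgeR adjusted p = 0.00184 and 0.00257). The part of adipocyte content in their levels was not tested. SCD5, a desaturase of the same family as SCD, had 8.77 and 6.33 CPM in stented static, 2.62 to 3.81 CPM in the other cultured groups, and 15.3 and 14.5 CPM in native vessels, and fell by 1.98 ± 0.25 (edgeR adjusted p = 0.000258). HACD2 of the elongation cycle and the desaturase-like FADS3 fell by 0.81 ± 0.21 and 1.03 ± 0.32, and ACSL5 rose by 0.80 ± 0.25 (edgeR adjusted p = 0.0156, 0.0347 and 0.0396). Those last 3 calls were lost without either native library (edgeR adjusted p up to 0.160, 0.258 and 0.282), those of FADS3 and ACSL5 also without either low-flow library, and that of ACSL5 without 3 further cultured libraries.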

How the data were processed

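Whole-vessel RNA was sequenced from 11 libraries in 5 groups. The authors deposited whole-number counts per gene in tables that give each library a column, and per the submitters' processing notes the reads were handled with Trimmomatic and FastQC and set against Sscrofa11.1, with DESeq2 listed as well. No source used here names the aligner or the counter, or says how strand and reads with several matches were treated, so genes that overlap others or share reads with near copies are uncertain. The 2 count tables hold the same native columns and were joined by gene identifier. The authors also deposited lists of log2 fold changes for each cultured group.

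From the deposited counts, genes were filtered with filterByExpr, libraries were scaled by TMM, and 1 model over all 5 groups was fitted with edgeR 4.0.16 in R 4.3.3, with Benjamini-Hochberg adjustment at 0.05 over 15348 genes. Libraries held 13.5 to 26.8 (in units of 1e6) counts, and floors in CPM cover counting error only. Mean log2 values used a prior count of 2. Gene positions are those of RefSeq in Sscrofa11.1, matched by symbol. Members called in any single-group or between-group comparison, with SREBF1, SREBF2 and INSIG1, are given by library, and the others by range. Wider genes are given only where called over all cultured groups, apart from SCAP, INSIG2 and MBTPS1. The members, lists and named-gene rule were chosen with earlier results of these data known. Alternatives were DESeq2 1.42.0, another scaling, other filters, the compared groups or 1 count table alone, a replicate block, another prior count, and leaving out each library. Some genes of the wider lists are not reported here.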

Additional observations from a re-analysis of the deposited data

How the results depend on the processing

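Counts of members called against native changed most with the libraries fitted together. Without a filter on low counts they were 10 in stented static and 5 in low-flow vessels, and 1 between stented high-flow and stented static vessels (FASN). With only the compared groups they were 3 in stented static and 15 in low-flow vessels, and when fitted within 1 of the count tables there were 3 in stented static, 13 in high-flow and 10 in low-flow vessels. DESeq2 gave 10 in stented static, 10 in stented high-flow and 8 in low-flow vessels, and 1 (FASN) between stented high-flow and stented static vessels. Here and in the refits below, the share of all genes called is not set beside these counts. The counts therefore cannot show whether a change is particular to the members. The cause was not tested. No 1-table value exists for stented high-flow against high-flow vessels, and none with fewer groups for all cultured groups. Of the 33 calls of members, 31 held with RLE scaling, 32 with no filter, 31 with at least 10 counts in every library and 33 with DESeq2. Of the 22 calls that could be refitted with only the compared groups, 16 held, and likewise 16 of 22 within 1 of the count tables.

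With 1 library left out, members called ranged from 0 to 11 in stented static, 0 to 9 in stented high-flow, 0 to 9 in high-flow, 0 to 6 in low-flow and 1 to 14 over all cultured groups, from 0 to 1 between stented high-flow and stented static vessels, and were 0 in the other comparisons. The lowest counts against native came without native replicate 1. The sterol against fatty acid difference ranged from 0.84 to 1.31 in stented static, 1.14 to 1.62 in stented high-flow, 1.49 to 1.97 in high-flow and 1.10 to 1.57 in low-flow vessels, and with medians it was 1.66 in stented static vessels.

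Whether the libraries are paired across groups could not be decided. Same-numbered deviations from the group means correlated at -0.329 to 0.183 over 20 pairs, 6 of them above 0.1. In groups of 2 libraries the deviations mirror each other, so many of these values repeat. The libraries that share the number 25 have different replicate numbers and were not set against each other. With the replicate number as a block, members called were 5, 4, 7, 4 and 11 in stented static, stented high-flow, high-flow, low-flow and all cultured vessels, and 24 of 33 calls held.

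Some values that had not passed any test changed sign. FASN in stented static vessels was -0.86 without replicate 1 of that group and 1.99 without replicate 2. In stented high-flow vessels INSIG1, SREBF1 and SREBF2 were -0.080, -0.39 and -0.51 with the replicate block, and ranged from -0.14 to 0.44, -0.47 to 0.97 and -0.53 to 0.37 with 1 library left out. In high-flow vessels INSIG1 ranged from -0.047 to 0.91 and SREBF2 from -0.21 to 0.23, and SREBF2 was 0.0117 with no filter, 0.0035 with the compared groups and 0.0118 with 1 table. In low-flow vessels SREBF1 ranged from -0.14 to 0.44 and SREBF2 from -0.024 to 0.079, and SREBF2 was -0.0138 with RLE scaling, -0.0287 with at least 10 counts and -0.0113 with DESeq2. Depth limits TM7SF2 most, with 14 counts in its lowest library.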

Other observations

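Genes that burn or store fatty acids were measured beside those that make them. Of 15 genes of fatty acid oxidation, 4 fell and 0 rose over all cultured groups by edgeR, a called share of 26.7% that is near the 25.7% of all genes. CPT2, the inner mitochondrial carnitine palmitoyltransferase, had 29.3 and 22.3 CPM in stented static, 23.3, 24 and 34.2 CPM in stented high-flow, 29.6 and 23.6 CPM in high-flow, 23 and 24 CPM in low-flow, and 70.5 and 72.8 CPM in native vessels. Every cultured library lay under the native ones by a wide margin, and CPT2 fell by 1.48 ± 0.20 (edgeR adjusted p = 0.00043). ACAA2, the thiolase that ends the mitochondrial cycle, had 9.65 to 18.3 CPM in cultured and 55.9 and 46.4 CPM in native vessels and fell by 1.89 ± 0.23 (edgeR adjusted p = 0.00018). Both calls held with any single library left out. HADHA of the same cycle and the coactivator PPARGC1A fell by 0.69 ± 0.17 and 2.55 ± 0.57 (edgeR adjusted p = 0.0123 and 0.00766), and those calls were lost without native replicate 1, that of HADHA also without native replicate 2 (edgeR adjusted p up to 0.129 and 0.426). The summed level of 8 smooth muscle markers was also lower, at 433 to 7160 CPM in cultured and 27500 and 33600 CPM in native vessels. Cardiomyocyte markers summed to 602 CPM in native replicate 1, 3.85 CPM in native replicate 2 and 0.140 to 2.95 CPM in cultured vessels. The part of either cell type in these changes was not tested.

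Of 9 genes of glycerolipid synthesis and lipid droplets, 1 rose and 1 fell (22.2% called). PLIN2, the droplet coat protein of most cells, rose by 1.73 ± 0.48 (edgeR adjusted p = 0.0226), a call that needed both native libraries (up to 0.163 without 1 of them). DGAT2, which makes triglyceride, had 197 and 0.243 CPM in stented static, 0 to 0.28 CPM in stented high-flow, 0.356 and 1.69 CPM in high-flow, 1.93 and 8.04 CPM in low-flow, and 170 and 101 CPM in native vessels. It was at the native level only in stented static replicate 1, the cultured library whose adipocyte marker sum was at the native level. The part of adipocyte content in its level was not tested.

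In the authors' deposited tables of changed genes, 0 of 553 listed genes in stented static and 0 of 1117 in stented high-flow vessels were members. The authors' deposited table for high-flow vessels held 2 members among 1129 genes, TM7SF2 at -2.89 and ELOVL6 at -2.42. That for low-flow vessels, also the authors' deposited table, held the same 2 among 928 genes, TM7SF2 at -3.28 and ELOVL6 at -2.39. Among the members and wider genes found in the authors' deposited tables, the change smallest in size was -2.02, in high-flow vessels. The calls made here used no cut-off on fold change, so the thresholds may differ. In stented high-flow vessels TM7SF2 (-2.64) and ELOVL6 (-2.32) were called here but were not in the authors' deposited table. That table held SCD5 at -2.21, a change smaller in size. Why the 2 members are absent from it was not tested.

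SCD counts were 5.58 and 5.04 times those of ELOVL6 in stented static, 4.92, 3.53 and 8.1 times in stented high-flow, 5.61 and 5.67 times in high-flow, 5.95 and 6.8 times in low-flow, and 3.59 and 3.28 times in native libraries.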
